A study of Homo sapiens with 2 samples.

Results

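The genes described here are 52 human genes of the cell-cycle engine: cyclins, the cyclin-dependent kinases (CDKs) they activate, CDK inhibitors, the RB and E2F families, *MYC*, the CDC25 phosphatases and *WEE1*, and kinases and kinetochore proteins of mitosis. They are 52 of 20175 protein-coding genes, listed by name and role with no threshold on a measured value, though the list was drawn up with earlier results of these data known. FLAG-SMARCA4 ChIP-seq was measured in 2 libraries, 1 from parental TOV21G cells and 1 from clone 3 of the EZH2 inhibitor-resistant (EIR) cells. TOV21G is an *ARID1A*-mutated line of ovarian clear cell carcinoma, and SMARCA4 (also known as BRG1) is an ATPase of the SWI/SNF chromatin remodelling complex. The EIR clone was picked after TOV21G cells had been adapted to the EZH2 inhibitor GSK126 at 5, then 10, then 15 and finally 20 µM, and the labels give no treatment for the parental cells. In both groups FLAG had been added to the endogenous *SMARCA4* gene and colonies grown from single cells were used, so that each group is 1 clone and 1 library. The difference between the libraries therefore has no replicate check, and every interval given below covers counting error only. Each region was listed because its tags differed between these same libraries, so an interval that leaves out 1 adds nothing to that.

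The deposited lists hold regions whose tags (mapped reads) differed between the 2 libraries, and no other regions. Of 12896 regions, 10792 had more tags in the parental library and 2104 had more in the EIR library. The members held 31 of these regions, 26 within 1 kb of a transcription start site (TSS) of a member and 5 elsewhere in a member's gene body. The parental library held about 25640000 tags and the EIR library about 34980000, and EIR tags are given throughout as scaled to the parental total, where 1 EIR tag counts as 0.733. A region was counted as parental-higher or EIR-higher by the list that holds it. A gene outside the lists was not called as different, which does not say that SMARCA4 was absent from it. With 1 library of each kind, a change in SMARCA4 occupancy and a change in the yield of the immunoprecipitation cannot be told apart. The authors report lower SMARCA4 mRNA and protein in EIR cells, and less SMARCA4 binding there as a whole. The part of the lower SMARCA4 level in the tags given below was not tested.

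The cell cycle is driven by cyclins that rise and fall in turn and switch on their CDK partners. Cyclin D with CDK4 or CDK6, and then cyclin E with CDK2, phosphorylate RB, which releases E2F factors to switch on genes for DNA replication. Cyclin A and cyclin B with CDK1 carry cells into mitosis, WEE1 holds CDK1 back, and the CDC25 phosphatases release it. CDK inhibitors of the INK4 and CIP/KIP families oppose the kinases. Many of these genes are themselves transcribed in waves, through E2F sites in their promoters in late G1 and through the CHR (cell cycle genes homology region) and CCAAT box later in the cycle.

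A parental-higher region lay within 1 kb of a TSS at 24 of the 52 genes (46.2%), against 23.2% of all protein-coding genes. No member had an EIR-higher region that close to a TSS, where 1.96% of protein-coding genes had one. Another 3 members (5.77%) had regions only elsewhere in the gene body, which was the case for 5.9% of protein-coding genes. The remaining 25 members (48.1%) had no region, compared with 69.5% of protein-coding genes. Annotation differed between the sets, since a member had a median of 8 distinct TSS positions and a protein-coding gene a median of 5, and the part of this in the count was not tested. When only the canonical TSS of each gene was used, 19 members (36.5%) had a parental-higher region, against 20.5% of protein-coding genes with a canonical TSS.

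By role, 6 of 7 cyclins of G1 and S phase had a parental-higher region within 1 kb of a TSS, as did 3 of 4 of the CDC25 and WEE1 genes and 5 of 9 E2F and MYC factors. It was present at 3 of 7 CDK inhibitors, 2 of 7 mitotic kinases and kinetochore genes and 0 of 3 genes of the RB family. The mitotic and other cyclins had 1 of 5, the CDKs of the cell cycle 1 of 4, and the transcriptional and other CDKs 3 of 6. Over all protein-coding genes the share was 23.2%. At the canonical TSS alone, the cyclins of G1 and S phase had 3 of 7 and the E2F and MYC factors 5 of 9. There the share of protein-coding genes was 20.5%. These groups are small and the shares were not tested against each other.

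**Figure D1:**
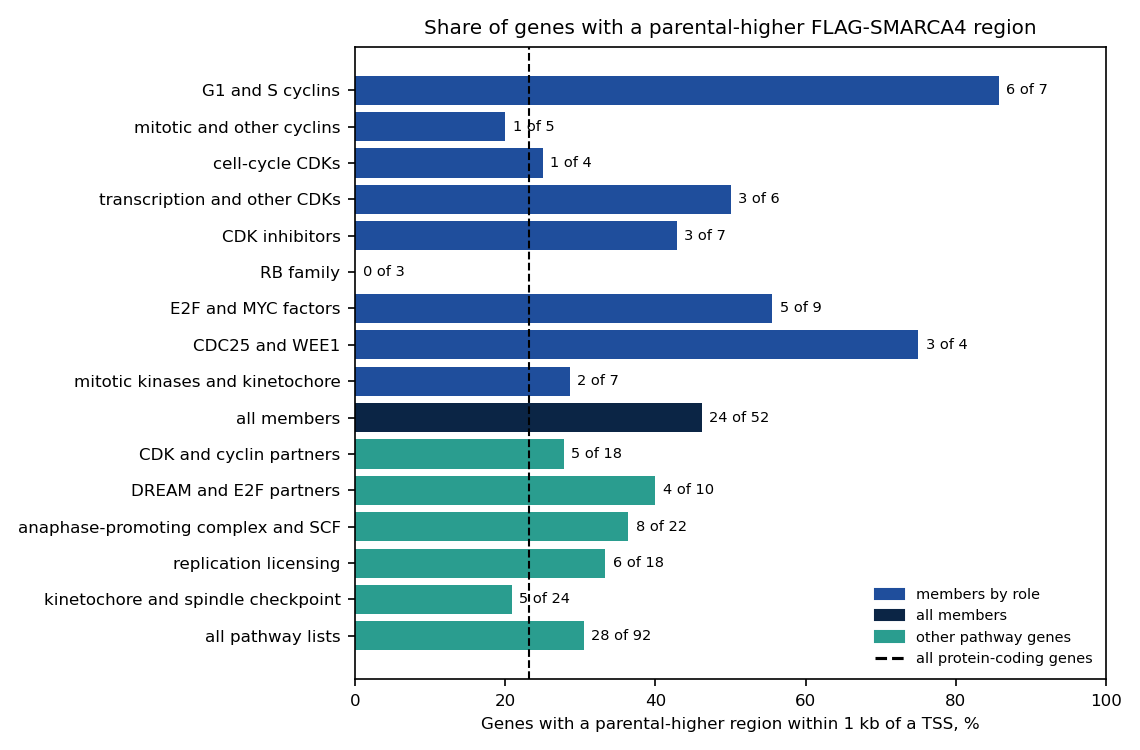
Share of genes (%, horizontal axis) with a parental-higher region within 1 kb of any TSS, for the members by role (blue), all members (dark blue) and other cell-cycle genes by list (green), with the count beside each bar. The dashed line marks the 23.2% of all protein-coding genes, and the cyclins of G1 and S phase have the longest bar, with 6 of 7 genes. Of these genes, 3 had a region within 1 kb of the canonical TSS.

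The values of the members' regions can be read beside those of other protein-coding genes. Taking the region nearest to a TSS at each of the 24 genes, all of them parental-higher, the median parental over EIR fold was 2.65 (lowest 1.77, highest 10.9). Over the 4651 protein-coding genes whose nearest region was also parental-higher the median was 2.52, and over all 4958 genes with a region of either direction it was 2.46. The members' regions held a median of 51 parental tags (lowest 16, highest 126) and 19.05 scaled EIR tags, and those of the 4651 genes 51 and 20.5. Median lengths were 764 bp in both sets, and the median GC content was 70.2% and 71.5%. The region covered a TSS at 17 of the 24 genes (70.8%) and at 73.6% of the 4651 genes. It also lay within 1 kb of a TSS of another protein-coding gene at 5 of the 24 (20.8%) and at 20.5% of the 4651 genes.

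**Figure D2:**
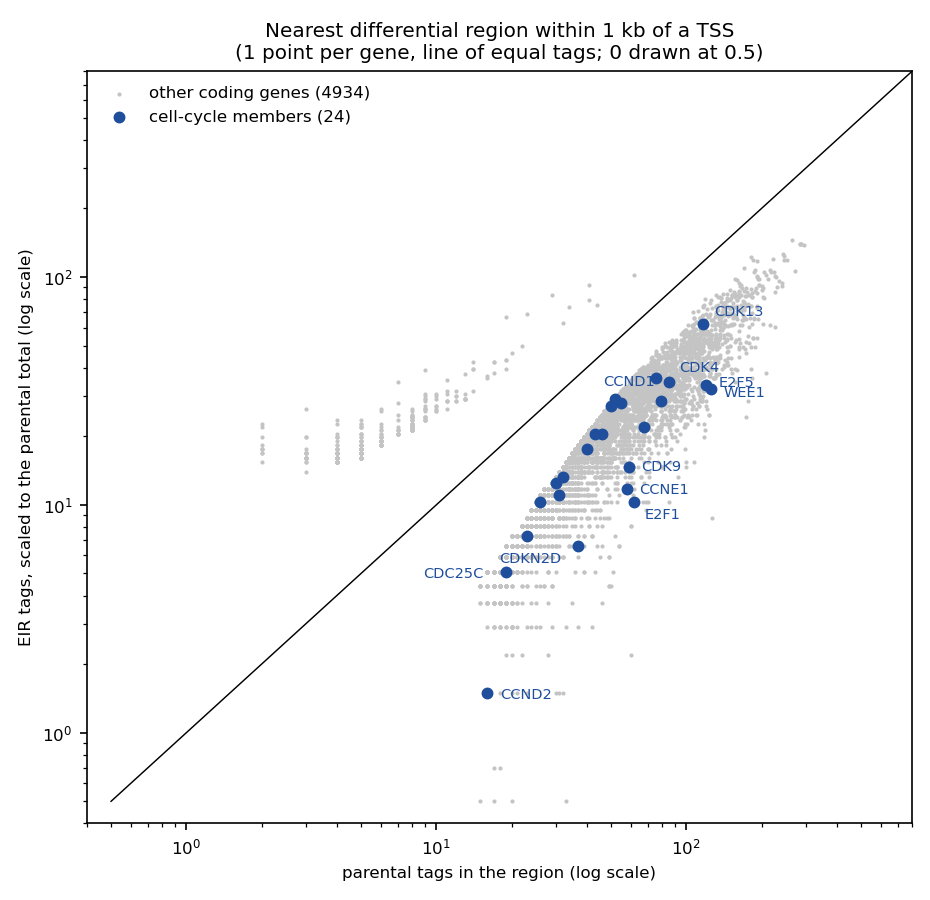
Parental tags (horizontal axis, log scale) and scaled EIR tags (vertical axis, log scale) in the nearest region within 1 kb of a TSS, 1 point per protein-coding gene. The 24 members (blue) all lie below the line of equal tags, spread through the cloud of parental-higher regions of other genes (grey), with *CCND2* lowest at 1.5 scaled EIR tags.

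The sequences upstream of the canonical TSS are shown for 2 members whose region covers that TSS, *E2F1* and *CCNE1*, and for *CCNB2*, which encodes a mitotic cyclin and had no region. *CCNB2* was chosen after its values were seen, as a promoter that holds the CHR and CCAAT box of mitotic genes. Each line gives the 200 bases before the TSS in GRCh37, on the strand of the gene, with capitals marking E2F sites, CHR and CCAAT boxes in either orientation.
E2F1 (chr20:32274192-32274391, - strand): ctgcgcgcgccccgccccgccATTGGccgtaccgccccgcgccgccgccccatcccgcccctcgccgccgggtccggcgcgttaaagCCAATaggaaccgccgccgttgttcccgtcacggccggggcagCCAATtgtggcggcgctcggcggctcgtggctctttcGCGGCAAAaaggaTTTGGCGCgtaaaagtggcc
CCNE1 (chr19:30302698-30302897, + strand): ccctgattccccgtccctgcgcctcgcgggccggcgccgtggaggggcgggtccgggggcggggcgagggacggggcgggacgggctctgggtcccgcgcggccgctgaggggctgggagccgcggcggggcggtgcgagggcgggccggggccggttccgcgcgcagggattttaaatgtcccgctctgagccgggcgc
CCNB2 (chr15:59397145-59397344, + strand): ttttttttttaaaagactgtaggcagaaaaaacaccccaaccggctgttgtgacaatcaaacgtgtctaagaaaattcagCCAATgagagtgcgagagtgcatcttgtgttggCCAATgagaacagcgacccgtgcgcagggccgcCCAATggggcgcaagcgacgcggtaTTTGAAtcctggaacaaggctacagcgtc
The *E2F1* promoter held E2F sites that began 33 and 20 bases before the TSS, below 3 CCAAT boxes, and the SMARCA4 region took in the last 57 of the 200 bases. All 200 bases of *CCNE1* lay in its region, and they held none of the searched words at a GC content of 81.0%. Sites that depart from these exact words were not searched for. The *CCNB2* promoter, with a GC content of 50%, held CCAAT boxes that began 120, 87 and 54 bases before the TSS and a CHR that began 29 bases before it.

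Over all 52 genes, the window from 250 bases before to 50 bases after the canonical TSS was searched for the same words, beside the windows of all protein-coding genes. An E2F site (TTTGGCGC or TTTCCCGC or TTTGCCGC or TTTCGCGC, on either strand) was found at 11 members (21.2%) and at 4.37% of 19894 protein-coding genes. A CHR (TTTGAA or TTCGAA) was found at 16 members (30.8%) and at 12.8% of the protein-coding genes, and a CCAAT box (CCAAT) at 28 members (53.8%) and at 36.0%. Matches of different words could share bases, and a match is only a match of letters. In the same way, a promoter without a match was not shown to lack a site. Members with and without a region within 1 kb of a TSS held an E2F site in 5 of 24 (20.8%) and 6 of 28 (21.4%) promoters. The CHR was present in 7 of 24 (29.2%) and 9 of 28 (32.1%), and the CCAAT box in 15 of 24 (62.5%) and 13 of 28 (46.4%). Over the 4948 protein-coding promoters with such a region, higher in either library, an E2F site was found in 4.77%. A CHR was found there in 8.41% and a CCAAT box in 32.7%. These shares were not tested. Both a CHR and a CCAAT box were present in 6 of 24 promoters of members with a region, among them *BUB1*, *KNL1* and *CDC25C*. The pair was also present in 7 of 28 without, among them *PLK1*, *AURKA* and *CDK1*. It was not counted over all protein-coding genes, so no background share stands beside these counts.

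The cyclins of G1 and S phase start the cycle and DNA replication. The highest number of tags among them was at *CCNE2*, one of the 2 genes for cyclin E, where the parental library had 76 tags and the EIR library 35.9 in chr8:95907906-95908938. That is a fold of 2.12 (95% confidence interval 1.46 to 3.09). The region lay 477 bp upstream of the canonical TSS of *CCNE2*, covered another annotated TSS of the gene, and also covered a TSS of *NDUFAF6*. At *CCNE1*, the other cyclin E gene, 58 parental tags stood against 11.7 EIR tags in a region across the canonical TSS, a fold of 4.95 (2.80 to 9.22). Of the member regions within 1 kb of a TSS, those of *CCND2*, *E2F1*, *CDKN2D*, *CCNE1* and *CDK9* reached a fold of 4. These are 5 of the 24 members with a parental-higher region, beside 408 of the 4671 protein-coding genes with one. As a share of all protein-coding genes, the 408 are 2.02%. The intervals of the cyclin E genes overlapped each other between 2.80 and 3.09. Their folds were not tested against each other, and an overlap of intervals does not decide whether 2 folds differ.

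The cyclin D genes, whose products pair with CDK4 and CDK6, each had a region away from the canonical TSS. At *CCND1* 52 parental and 29.3 EIR tags were counted in chr11:69457090-69457852, inside the gene over intron 1 and exon 2, with the edge 628 bp from the nearest TSS and 1166 bp from the canonical one. The fold of 1.77 (1.15 to 2.75) was the lowest at the members, and the p-value of HOMER, the peak caller, was 9.82e-05, close to the largest in the lists, 9.99e-05. At *CCND2* 16 parental tags stood against 2 EIR tags (1.5 when scaled) at chr12:4384675-4385175, which covers a TSS of a shorter transcript 1747 bp or more downstream of the canonical TSS, near the TSS of *CCND2-AS1*. The fold of 10.9 is the highest at the members and also the least precise, with an interval of 2.57 to 97.8. At *CCND3* 26 parental and 10.3 EIR tags were found at chr6:42016462-42016962, over the TSS of another annotated transcript. The near edge of this region lay 106916 bp upstream of the canonical TSS. In *CCNA2*, the gene for the cyclin A of dividing cells, 32 parental and 13.2 EIR tags lay in a region 118 bp downstream of the TSS. *CCNA1*, the cyclin A gene known from the germ line, had no region, and the nearest was 300022 bp from the gene.

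Of the cyclins of mitosis and the remaining cyclins, 1 of 5 had a region. *CCNF*, the gene for cyclin F, which is a substrate receptor of an SCF ubiquitin ligase, had 55 parental and 27.9 EIR tags in chr16:2478584-2479212, a fold of 1.97 (1.28 to 3.07), 236 bp upstream of the canonical TSS. *CCNB1* and *CCNB2*, the cyclin B genes, had no region, and neither did *CCNG1* and *CCNG2*. The nearest region lay 11661 bp from *CCNB1*, 13438 bp from *CCNG1*, 81312 bp from *CCNG2* and 164354 bp from *CCNB2*.

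Among the CDKs of the cell cycle, only *CDK4* had a region within 1 kb of a TSS. The region at chr12:58149039-58150267 held 85 parental and 34.5 EIR tags, a fold of 2.47 (1.71 to 3.60). It lay 2946 bp upstream of the canonical TSS of *CDK4*, over the TSS of another annotated transcript of the gene, and it also covered a TSS of *MARCHF9*, a gene for a membrane ubiquitin ligase, whose canonical TSS was 153 bp away. *CDK6* had a region only in its gene body, at chr7:92265060-92265768 in intron 5, with 29 parental and 10.3 EIR tags and a fold of 2.83 (1.45 to 5.79), 17469 bp from the nearest TSS. *CDK1* and *CDK2* had none. The region nearest to *CDK1* lay 2771 bp from the gene, and that nearest to *CDK2* 39659 bp.

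**Figure D3:**
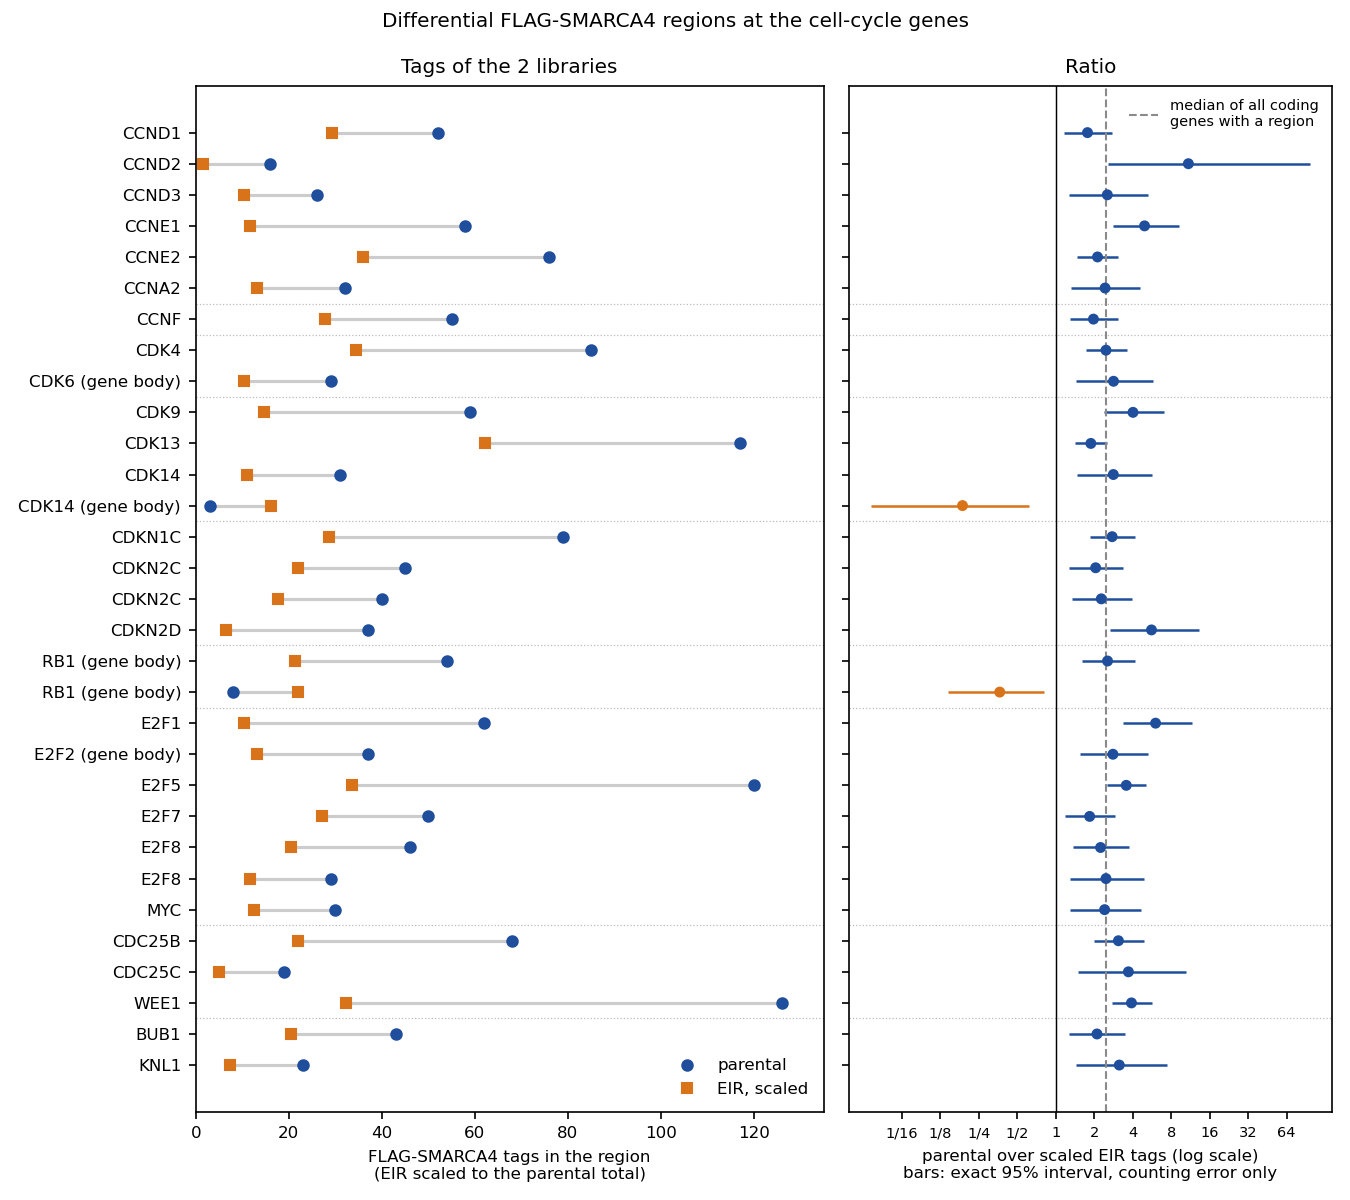
Tags at the 31 member regions in the parental (blue circles) and EIR library (orange squares, scaled to the parental total) on the left, and parental over EIR tags on a log scale with exact 95% intervals on the right, in the order of roles with dotted lines between them. At 29 regions the parental library is higher, and the gene-body regions of *CDK14* and *RB1* drawn in orange are the 2 where the EIR library is higher.

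The CDKs of transcription act on RNA polymerase II or its regulators. *CDK13*, whose product phosphorylates the polymerase during elongation, had 117 parental and 62.3 EIR tags in chr7:39990015-39991033, over exon 1 of the gene and 160 bp downstream of the canonical TSS. The fold was 1.88 (1.41 to 2.51), and per kilobase the region had the most tags of any member region in both libraries, 115 in the parental and 61.2 in the EIR library. *CDK9*, the kinase of the elongation factor P-TEFb, had 59 parental and 14.7 EIR tags in a region that covered its TSS, with a fold of 4.02 (2.39 to 7.06). The intervals of *CDK9* and *CDK13* overlapped between 2.39 and 2.51, and their folds were not tested against each other. *CDK7*, *CDK8* and *CDK12* had no region.

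*CDK14*, a kinase that pairs with cyclin Y, had regions of both directions. Over its canonical TSS, at chr7:90225286-90225786, 31 parental and 11 EIR tags were counted, a fold of 2.82 (1.48 to 5.62). In intron 2, at chr7:90307025-90307525 and 81390 bp downstream of that TSS, 3 parental tags stood against 16.1 EIR tags, so that the EIR library was 5.38-fold higher (1.61 to 28.1). An EIR-higher region elsewhere in the gene body was present at 2 members, *CDK14* and *RB1*, and at 3.13% of protein-coding genes. The promoter region had a GC content of 77.8% and the intronic region 44.5%.

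CDK inhibitors brake the cycle. *CDKN1C*, which encodes the CIP/KIP inhibitor p57, had 79 parental and 28.6 EIR tags in chr11:2905636-2906740, a fold of 2.76 (1.86 to 4.17). This region lay over intron 1 to intron 2, from 265 bp downstream of the canonical TSS, and covered another TSS of the gene. *CDKN2D*, an INK4 inhibitor gene, had 37 parental and 6.6 EIR tags in a region over its TSS, a fold of 5.61 (2.66 to 13.2). *CDKN2C*, another INK4 gene, had 2 regions, with 45 parental and 22 EIR tags 544 bp upstream of the canonical TSS and 40 parental and 17.6 EIR tags at an upstream transcript, where the region covered the canonical TSS of *FAF1*. The inhibitor genes *CDKN1A*, *CDKN1B*, *CDKN2A* and *CDKN2B*, for p21, p27, p16 and p15, had none. A region lay 1644 bp from *CDKN1B*, and the nearest regions to the other 3 were 32353 to 51926 bp away.

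**Figure D4:**
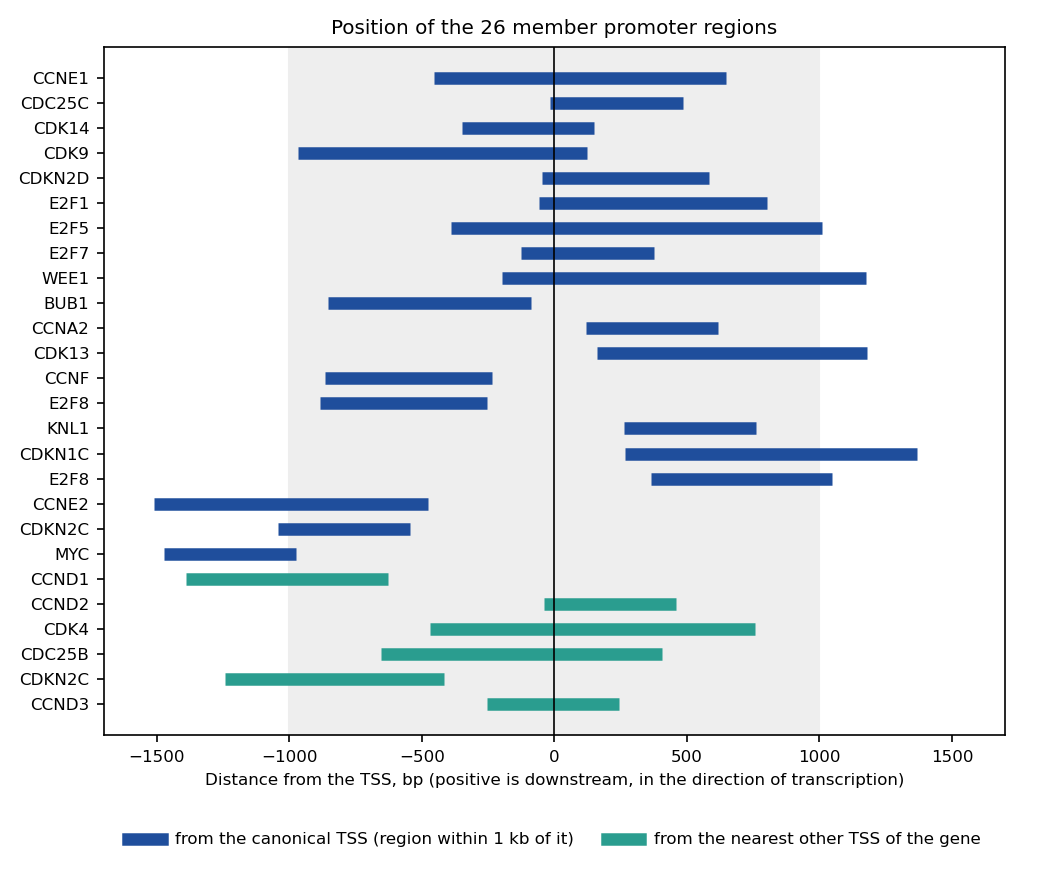
Extent of the 26 member regions within 1 kb of a TSS, drawn to scale against that TSS at 0 (horizontal axis, bp, positive in the direction of transcription, grey band 1 kb to either side). Regions within 1 kb of the canonical TSS are blue, and the 6 regions that reach only another TSS (*CCND1*, *CCND2*, *CCND3*, *CDK4*, *CDC25B* and 1 of 2 at *CDKN2C*) are green and drawn from that TSS.

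In the RB family, the pocket proteins that hold E2F factors in check, no gene had a region within 1 kb of a TSS. The gene body of *RB1* held a pair of regions in opposite directions. At chr13:49105686-49106502 the parental library had 54 tags and the EIR library 21.3, a parental-higher fold of 2.54 (1.59 to 4.14). At chr13:49107546-49108170, the parental library had 8 tags and the EIR library 22, an EIR-higher fold of 2.75 (1.23 to 6.94), with a HOMER p-value of 9.4e-05. Both regions lay beyond the end of the canonical *RB1* transcript and inside *RB1* only through a longer annotated transcript. They were 714 and 330 bp from the canonical TSS of *RCBTB2*, one on each side of it. *RBL1* and *RBL2*, which encode p107 and p130, had no region.

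The E2F family holds activators and repressors of cell-cycle transcription. *E2F5*, a repressor that works with p130, had 120 parental and 33.7 EIR tags in chr8:86088999-86090397, across its canonical TSS, exon 1 and intron 1. The fold was 3.56 (2.51 to 5.11). *E2F1*, the activator that is itself an E2F target, had 62 parental and 10.3 EIR tags across its TSS, a fold of 6.04 (3.34 to 11.7), the largest among the members after *CCND2*. *E2F7*, an atypical repressor, had 50 parental and 27.1 EIR tags over its TSS, a fold of 1.84 (1.18 to 2.90). The folds of *E2F7* and *E2F1* were not tested against each other. *E2F8*, the other atypical repressor, had 2 regions, with 46 parental and 20.5 EIR tags upstream of the canonical TSS and 29 parental and 11.7 EIR tags downstream of it. *MYC*, which encodes a transcription factor that drives entry into the cycle, had 30 parental and 12.5 EIR tags in a region 177 bp from the nearest TSS and 974 bp upstream of the canonical one, near the TSS of the non-coding gene *CASC11*. *E2F2* had a region in intron 1 only, at chr1:23855432-23856324, with 37 parental and 13.2 EIR tags and a fold of 2.80 (1.56 to 5.23). At 1401 bp from the TSS it was the member region closest to the 1 kb limit from outside, and that of *CCND1*, at 628 bp, was the closest from inside. *E2F3*, *E2F4* and *E2F6* had none.

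*WEE1* and the CDC25 genes set the activity of CDK1 from opposite sides. *WEE1* had the most parental tags of any member, 126 against 32.3 EIR tags, in chr11:9595018-9596392, a fold of 3.91 (2.75 to 5.64). The region ran from upstream of the TSS, through exon 1, to 1175 bp downstream in intron 1. *CDC25B* had 68 parental and 22 EIR tags, a fold of 3.09 (1.98 to 4.92), at an annotated TSS 9132 bp or more upstream of its canonical one, and the same region covered the canonical TSS of *CENPB*, which encodes a centromere protein. *CDC25C* had 19 parental and 5.1 EIR tags in a region over its TSS, a fold of 3.70 (1.49 to 10.4), and a TSS of *FAM53C* lay 115 bp away. *CDC25A* had no region.

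Of the mitotic kinases and kinetochore genes, *BUB1*, a kinase of the spindle checkpoint, had 43 parental and 20.5 EIR tags in chr2:111435727-111436493, a fold of 2.10 (1.27 to 3.50), 87 bp upstream of its TSS. *KNL1*, the kinetochore scaffold to which BUB1 binds, had 23 parental and 7.3 EIR tags in intron 1, 262 bp downstream of its canonical TSS, a fold of 3.14 (1.44 to 7.39). The intervals of these genes overlapped between 1.44 and 3.50, and their folds were not tested against each other. *AURKA*, *AURKB*, *PLK1*, *BUB1B* and *MAD2L1* had no region. The nearest lay 8223 bp from *AURKA*, 27916 bp from *AURKB*, 51987 bp from *BUB1B*, 145263 bp from *PLK1* and 855627 bp from *MAD2L1*, the longest distance at any member.

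The 19 members with a region within 1 kb of the canonical TSS include 5 of the 9 E2F and MYC factors, 3 of the 7 cyclins of G1 and S phase and 0 of the 4 cell-cycle CDKs. Among protein-coding genes with a canonical TSS the share was 20.5%, and these small groups were not tested against it. At *CCND1*, *CCND2*, *CCND3*, *CDK4* and *CDC25B* the count rested on another annotated TSS, 0 to 628 bp from the region. Of the 24 counted regions, those of *CCNE2*, *CDK4*, *CDKN2C*, *CDC25B* and *CDC25C* were within 1 kb of a TSS of another protein-coding gene, and tags there cannot be assigned to 1 of the genes.

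Other genes of the same pathways, 92 in 5 lists, had a parental-higher region in 28 cases (30.4%, against 23.2% of all protein-coding genes) and an EIR-higher one in 1 case, where 1.96% of protein-coding genes had one. By list these were 5 of 18 CDK and cyclin partners, 4 of 10 partners of E2F and of the DREAM complex, 8 of 22 genes of the anaphase-promoting complex and SCF ligases, 6 of 18 of replication licensing and 5 of 24 of the kinetochore and spindle checkpoint, shares of 20.8% to 40% that were not tested. The most tags in each list were at *CCNY*, the cyclin of CDK14, with 179 parental and 83.6 EIR tags (fold 2.14), and at *TFDP1*, the dimer partner of E2F, with 110 and 27.9 (3.95). They were followed by *CUL1*, the scaffold of SCF ligases, with 196 and 98.2 (2.0), and *DBF4*, the activator of CDC7, with 56 and 27.9 (2.01). In the kinetochore and spindle checkpoint list the most tags were at *PKMYT1*, with 112 and 41.8 (2.68). This gene, for a kinase related to WEE1, had been placed in that list. *MAD1L1*, which recruits MAD2 to kinetochores, was the only gene of these lists with an EIR-higher region within 1 kb of a TSS, and it is also 1 of the 5 genes of its list with a parental-higher region. In the EIR-higher region 4 parental tags stood against 16.1 EIR tags, 4.03-fold (1.37 to 16.1) more in the EIR library.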

How the data were processed

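FLAG-SMARCA4 ChIP-seq libraries of parental and EIR TOV21G cells were made by the authors with dual crosslinking and MNase digestion and sequenced in single-end runs. Per the labels and the methods, reads were aligned to hg19 (GRCh37) with bowtie 0.12.9, and HOMER, whose version is not given in the sources used here, called regions (histone style, FDR under 5%) in each library against the other one. The deposited parental tags are raw counts. The deposited EIR tags are a signal scaled by the authors to the parental total. The authors' fold is the ratio of these values, with a floor of 0.5 tags, and the deposited p-value is HOMER's Poisson p-value. Deposited normalized tags, the findPeaks score and the clonal fold were not used as results.

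The value of 1 EIR tag, 0.733, comes from the spacing of the scaled values, of which 100% were whole within 0.05 scaled tags. It gives totals of about 25640000 and 34980000 tags. Folds were computed from the tags with exact Clopper-Pearson 95% confidence intervals, which treat reads as independent. Regions were joined to every TSS of GENCODE release 44 mapped to GRCh37 (nearest edge, 1 kb), then to gene bodies. Where several regions were near a gene, the nearest was counted, and of equally near ones that with the most tags. With 1 library per group no test between conditions was possible, and counts of members stand beside those of all protein-coding genes. Shares of all promoters use genes with a canonical transcript. Promoter sequences were read from the GRCh37 reference.

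The members, the other pathway lists and the tests were chosen with earlier results of these data known. All members were named by role. Full values were given for the region with the most parental tags in each role and for every EIR-higher region, members with regions in both directions and members with gene-body regions only. Pathway lists were given as counts with the gene of most tags and any EIR-higher gene. Promoters to print were taken from the roles' regions of most tags that cover the canonical TSS, with chromosome 8 left out, and 1 such promoter is not reported here. Alternatives were other windows, distances, thresholds and scalings. The interval, the binomial test and the TSS join were tested on simulated data. The simulated counts were not selected for a difference, so that check does not cover intervals of the selected regions. Python 3.11.15, NumPy 2.4.6, SciPy 1.17.1, pandas 2.3.3, pysam 0.24.0, samtools 1.23.1 and matplotlib 3.10.9 were used. RNA-seq was not analysed here.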

Additional observations from a re-analysis of the deposited data

How the results depend on the processing

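The count of 24 members near a region stayed between 19 and 26 with a window of 500 bp or 5 kb, the centre of the region, the 5′ end of the gene, a fold of at least 2, and the canonical TSS only, which was added after the data were seen. At these settings 18.7% to 27.0% of all protein-coding genes had a parental-higher region. Benjamini-Hochberg adjusted exact binomial p-values under 0.05 and the EIR library scaled 1.5 times lower left the count of members at 24, which the selection of the regions fixes. It fell to 14 with a HOMER p-value of at most 1e-06, to 5 with a fold of at least 4, and to 10 with the EIR library scaled 1.5 times higher and a Poisson p of at most 1e-04. The share of all protein-coding genes fell at the same settings, from 23.2% to 14.6%, 2.02% and 8.34%. EIR-higher regions near a member's TSS numbered 0 throughout, except for 1, at *CDKN2D*, with a window of 5 kb. The median fold of 2.65 was 1.77 with the EIR library scaled 1.5 times higher and 3.97 with it scaled 1.5 times lower, against 1.64 and 3.68 over all genes, and 2.55 to 2.78 under the other alternatives. The 31 fold intervals leave out 1 because the regions were selected on the same tags. With the EIR library scaled 1.5 times higher 14 of them still did, and 30 with it scaled lower. The counts of gene-body-only members (2 to 4) and, over all 52 members, of each motif stayed within 1.5 times. With 150 bases before the TSS, an E2F site was found at 3 of 24 members with a region and 6 of 28 without. In that window the CHR share of all protein-coding genes fell from 12.8% to 7.55%. Their E2F share fell from 4.37% to 2.97% and their CCAAT share from 36.0% to 28.4%. Since regions outside the lists are unknown, another threshold or scaling could only lose regions of the lists, while a wider window could gain them. The lowest tags of a parental-higher region were 15, so that regions with fewer parental tags are not represented in that list. No paired analysis was possible because each group has 1 library.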
